A study of Mus musculus with 9 samples.

Results

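The cytosolic ribosomal protein genes of myeloid-derived suppressor cells (MDSCs) are described here. Symbols starting with Rpl, Rps, Rplp or Rpsa were taken from the 23284 genes of the deposited tables, and 16 of the 101 matches were set aside as kinases, a binding protein or pseudogene symbols. Of the 85 symbols kept, 82 reached a mean of 1 FPKM over the 9 samples. FPKM counts fragments per length of transcript and per size of the library, so levels can be set beside each other between genes. The 82 genes comprised 31 small-subunit proteins, 42 large-subunit proteins, the 3 genes of the acidic stalk and 6 paralogues, which are copies of another ribosomal protein gene.

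The study isolated MDSCs from the spleens of mice carrying spindle cell tumour (SCT) grafts, 3 weeks after the tumour cells were injected, and sequenced poly(A) RNA. There were 3 samples each of polymorphonuclear MDSCs (PMN-MDSCs, Ly6G+) from WT mice of strain C57BL/6J, monocytic MDSCs (Mo-MDSCs, Ly6G- Gr-1+) from WT mice of that strain, and Mo-MDSCs from mice lacking p16 and p21 (p16/p21-DKO), labelled C57BL/6. The label field for age reads 3 weeks in all samples, but the study's methods describe adult mice, so the field may not hold the age of the animals. Both genes were deleted in the whole animal, and the SCT line itself came from a p16 knockout mouse, so every group carried the same p16-deficient tumour. The cells were enriched on columns with a kit and not sorted. Nothing in the labels says that the 3 samples of a group came from separate mice, so each p-value measures only the spread between these samples.

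Ribosomal proteins and ribosomal RNA form the particle that translates every mRNA, and each subunit is built from a fixed set of proteins. Their mRNAs are among the most abundant of most cells, are short, and typically start with a run of pyrimidines, the 5′ terminal oligopyrimidine (TOP) tract, through which the TOR pathway and the RNA-binding protein Larp1 control their translation. Granulocytes and monocytes both derive from dividing bone marrow progenitors with a high demand for ribosomes, and granulocytes lose much of their translational capacity as they mature.

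Pyrimidine runs were looked for at the starts of the genes. RefSeq transcript starts on GRCm38.p6 were matched by symbol for 61 of the 82 genes, and the 30 bases centred on each start were searched for a C followed by at least 5 further pyrimidines on the gene's strand. Such a run was found in 35 of the 61 genes (57.4%) and in 25.5% of the 27025 genes of the same table (27.9% of those with a mean of at least 1 FPKM). The windows of the genes the comparisons below turn on are given 5′ to 3′, with the longest run in capitals. The first 6 hold a run, and the last 3 hold none.

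Rpl34, chr3:130730323-130730352, minus strand: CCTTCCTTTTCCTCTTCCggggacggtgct

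Rps21, chr2:180257364-180257393, plus strand: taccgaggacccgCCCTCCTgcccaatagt

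Rps9, chr7:3704026-3704055, plus strand: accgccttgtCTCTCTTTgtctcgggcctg

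Rpl12, chr2:32961697-32961726, plus strand: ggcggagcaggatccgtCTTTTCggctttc

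Rpl13a, chr7:45128731-45128760, minus strand: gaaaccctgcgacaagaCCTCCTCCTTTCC

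Rpl22l1, chr3:28805493-28805522, plus strand: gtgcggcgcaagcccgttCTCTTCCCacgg

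Rpl37, chr15:5116598-5116627, plus strand: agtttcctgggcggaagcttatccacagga

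Rpl36al, chr12:69184053-69184082, minus strand: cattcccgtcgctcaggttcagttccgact

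Rpl3l, chr17:24727811-24727840, plus strand: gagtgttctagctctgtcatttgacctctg

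The longest run in these windows, 19 bases, was found in Rpl7a and Rpl27a. In the 250 bases before to 50 bases after the start, the 7-base motif CCGGAAG, the core bound by ETS factors, or its reverse complement CTTCCGG was found in 24 of the 61 genes (39.3%), in 9.93% of all genes of the table and in 20.9% of those with a mean of at least 1 FPKM. These matches describe letters in a window, and a listed start is not always the start used in a given cell. The 82 genes are scattered over the genome. The GENCODE M21 annotation places 81 of them on 19 chromosomes, 14 on chromosome 7.

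As a group the genes were expressed at very high levels in all 9 samples. A mean of at least 100 FPKM was reached by 75 of the 82, and 43 of the 100 genes with the highest mean were ribosomal protein genes. Rplp1, a stalk protein that contacts the elongation factors, was listed at 2634, 3096 and 3096 FPKM for PMN-MDSCs, 2172, 2483 and 2408 for the WT samples of Mo-MDSCs, and 2036, 2406 and 2132 for the DKO samples. Its PMN-MDSC values lay above all 6 Mo-MDSC values, while the WT and DKO values overlapped. The other genes of highest mean were Rps29 (1834 to 3324 FPKM over the 9 samples), Rps9 (1648 to 3152), Rpl41 (1447 to 2558) and Rpl38 (1364 to 2347). Rps29 is a zinc-binding protein of the small subunit, and Rpl41 encodes the shortest protein of the group.

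Of the 7 genes with a mean under 100 FPKM, 3 were paralogues and 4 encode constant components of the ribosome. Rps27, of the small subunit, was listed at 7.78, 19.7 and 42.0 FPKM for PMN-MDSCs, 4.17, 11.8 and 20.97 for WT Mo-MDSCs, and 8.00, 19.3 and 7.73 for the DKO samples. Rpl30, of the large subunit, was listed at 14.9, 16.6 and 16.6, at 6.25, 14.4 and 17.8, and at 12.03, 14.7 and 25.3 FPKM in the same order. Both were far below the group's usual level in all 9 samples, and their replicates spread widely. Rps15a ranged from 57.4 to 81.0 FPKM and Rpl22 from 81.5 to 105 FPKM.

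The 3 symbols left out by the floor were Rpl26, Rpl39l and Rpl10l. Rpl26, a constant large-subunit protein that also binds the p53 mRNA, was listed at 0 in 8 samples and at 6.94 FPKM in PMN-MDSC replicate 3. The testis-associated copies Rpl39l and Rpl10l had means of 0.244 and 0 FPKM. The gene just inside the floor was Rpl3l, with a mean of 1.63 FPKM. The sequence that each gene shares with other genes was counted. Of the distinct 75-base stretches of each gene's transcripts, 75 bases being the read length, a median of 27.9% also occurred in another annotated gene, and at least one did so in 78 of 81 genes. The share was 42.4% for Rps27, 18.4% for Rpl30 and 3.503% for Rps15a, with the highest value, 84.6%, for Rpl36a. How the authors' programs divided such reads was not stated, and its part in the low values was not tested.

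**Figure D1:**
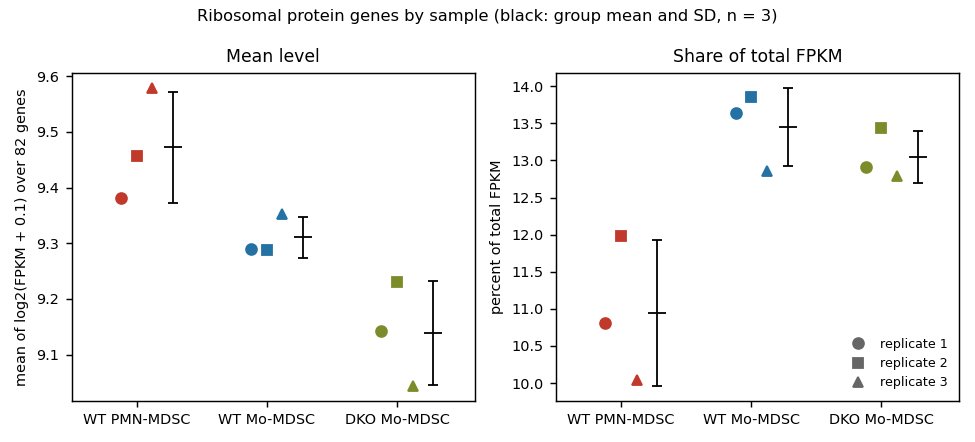
Left, the mean of log2(FPKM + 0.1) over the 82 ribosomal protein genes in each sample; right, their summed FPKM as a percent of the sample's total FPKM. Points are samples by replicate number, and black marks give the group mean and SD (n = 3); on the left, as deposited, the groups fall in the order PMN-MDSC, WT Mo-MDSC, DKO Mo-MDSC without overlap, while on the right PMN-MDSCs are lowest (10.04 to 11.99%).

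The group was summarised as the mean of log2(FPKM + 0.1) over its 82 genes. As deposited, this mean was 9.38, 9.46 and 9.58 for the PMN-MDSC samples, 9.29, 9.29 and 9.35 for WT Mo-MDSCs, and 9.14, 9.23 and 9.04 for the DKO samples. The groups did not overlap in this order, with means of 9.47 ± 0.0996, 9.31 ± 0.0369 and 9.14 ± 0.0931 (SD, n = 3). The difference was -0.16 for WT Mo-MDSCs minus PMN-MDSCs and -0.17 for DKO minus WT Mo-MDSCs. The first of these takes in Rpl3l, which reached the mean of 1 FPKM only through PMN-MDSCs and whose own difference was -2.42. Rps27 and Rpl30, whose replicates spread widely, followed with -0.87 and -0.45. The median difference over the 82 genes was smaller, at -0.12. By group mean, 64 of the 82 genes followed the order PMN-MDSC, WT Mo-MDSC, DKO Mo-MDSC, 15 were highest in WT Mo-MDSCs, and 78 were lowest in DKO Mo-MDSCs. PMN-MDSC replicate 3 held the highest of the 9 values for 59 genes and DKO Mo-MDSC replicate 3 the lowest for 57.

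The order depended on what the values were set against. The ribosomal protein genes made up 10.8, 11.99 and 10.04% of total FPKM for the PMN-MDSC samples, 13.6, 13.9 and 12.9% for WT Mo-MDSCs, and 12.9, 13.4 and 12.8% for the DKO samples. On this measure PMN-MDSCs lay below both Mo-MDSC groups, and the WT and DKO values overlapped. The totals themselves differed, with 711675 to 916642 FPKM for PMN-MDSCs, 549976 to 618250 for WT Mo-MDSCs, and 494252 to 534354 for the DKO samples. The 10 highest genes outside the group took 18.5 to 28.9% of total FPKM for PMN-MDSCs, 9.56 to 15.3% for WT Mo-MDSCs, and 9.43 to 11.8% for the DKO samples. Without those 10 genes of each sample, a measure chosen after seeing the data, the share was 13.8 to 14.7%, 15.2 to 15.6% and 14.3 to 14.8%.

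**Figure D2:**
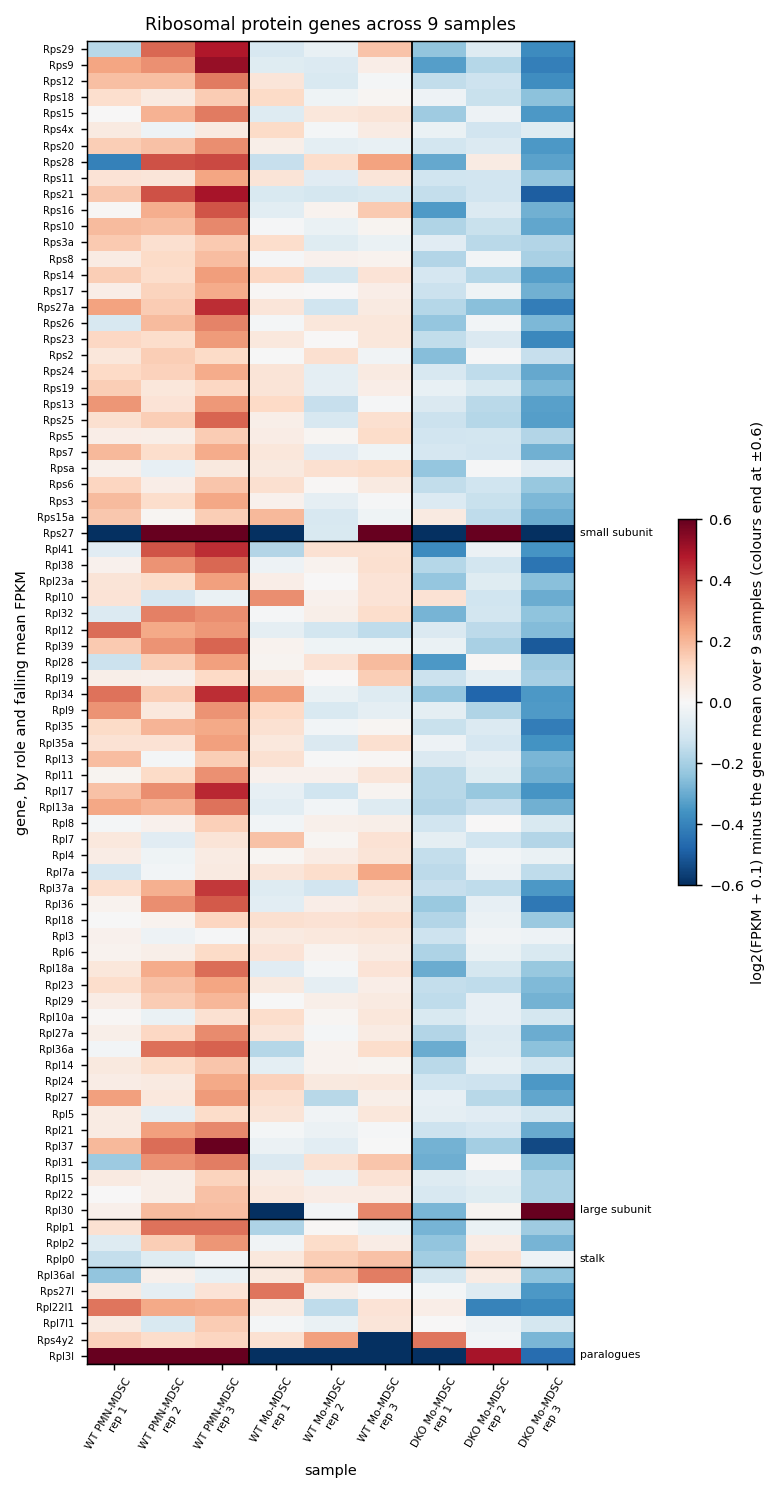
Each row is a ribosomal protein gene, by role and falling mean level, and each column a sample. Colour gives log2(FPKM + 0.1), as deposited, minus the gene's mean over the 9 samples, ending at ±0.6. PMN-MDSC replicate 3 is highest for 59 genes and DKO Mo-MDSC replicate 3 lowest for 57.

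Marker genes of the cell types a spleen preparation can hold differed between the same groups for some lists and overlapped for others. Summed over the 9 of 10 listed neutrophil markers found in the tables, the level was 97933 to 222852 FPKM for PMN-MDSCs, 15566 to 54289 for WT Mo-MDSCs, and 6075 to 14990 for the DKO samples. The 9 monocyte markers summed to 1076 to 1132, 2433 to 2754 and 1970 to 2166 FPKM. No marker of these lists was at 0 in all 9 samples, each labelled type had the higher sum of its own markers, and neutrophil transcripts were present in the Mo-MDSC samples. B-cell markers (6 of 7 found) summed to 1530 to 1758, 1115 to 1265 and 1188 to 1512 FPKM, highest in PMN-MDSCs. The 7 red-pulp macrophage markers summed to 5597 to 6665, 3522 to 4526 and 3778 to 5780 FPKM, higher in PMN-MDSCs than in WT Mo-MDSCs and overlapping with DKO. The 6 myeloid-progenitor markers summed to 5.42 to 14.9, 22.2 to 36.5 and 8.23 to 15.7 FPKM, with WT Mo-MDSCs above both other groups. The 12 proliferation genes summed to 362 to 494, 385 to 559 and 353 to 618 FPKM, and these ranges overlapped. The part of these cells in the results was not tested, and in bulk RNA fewer cells of a type and less RNA per cell cannot be told apart. The gene-level values of the deleted genes did not check the labels. Cdkn1a, which encodes p21, was listed at 8.18, 6.46 and 8.04 FPKM in WT and at 5.55, 8.52 and 6.00 in DKO Mo-MDSCs. Cdkn2a, which encodes p16, stood at 0.718, 0.772 and 0.432 and at 0.258, 0.586 and 0 FPKM. The values overlapped for both, and the exons deleted are not given in the sources used here. DKO therefore names the samples labelled p16/p21-DKO throughout.

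The first comparison asked how Mo-MDSCs of WT mice differed from PMN-MDSCs. As deposited, 67 of the 82 genes had lower values in Mo-MDSCs (background 49.2%) and 15 had higher values (background 50.8%), with a median log2 fold change of -0.12 against 0.01 over all 11491 genes tested. At equal total FPKM the split turned to 3 lower and 79 higher, with medians of 0.33 for the ribosomal protein genes and 0.45 for all genes, and quantile normalization gave 0.16 and 0.06. Equal totals thus moved the median of all genes to 0.45, and relative to the median gene the ribosomal protein genes stood at -0.13 as deposited, -0.12 at equal totals and 0.10 after quantile normalization. Equal totals scale all genes of a sample alike, so the values as deposited and at equal totals had to be close and are not separate checks.

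With limma, 8 of the 82 genes were lower in WT Mo-MDSCs at an adjusted p below 0.05 (background, 20.6% of all genes tested) and 0 were higher (background 18.5%). The 8 include Rpl3l, which entered the test only because PMN-MDSCs lift it over 1 FPKM. Where each of the samples had to reach 1 FPKM, 7 were called, beside 2232 lower calls among the 10704 genes tested. At an unadjusted p below 0.05, 16 were lower and 1 higher, beside 2873 and 2681 of the 11491 genes tested. The groups did not overlap for 25 genes that were lower (background 26.4%) and 5 that were higher (background 26.2%). Apart from the genes lower without overlap, each of these counts was a smaller share than among all genes. Samples that carry the same replicate number deviated together in this comparison, and limma, when blocked on that number, called 27 genes lower (background 29.7%) and 3 higher (background 27.6%). The 27 contained all 8. At equal total FPKM the calls were 1 lower (background 8.3%), which was Rpl3l, and 43 higher (background 50.7%). Leaving out a sample gave 1 to 6 lower calls in the group, beside 1739 to 2113 among all genes tested. The number in the group was 1 without PMN-MDSC replicate 2 and without Mo-MDSC replicate 2 or 3. It was 2 without Mo-MDSC replicate 1, and 3 without PMN-MDSC replicate 3. Without Mo-MDSC replicate 2 or 3 the call was Rpl3l, which was also among the 2 without Mo-MDSC replicate 1. Replicates 2 and 3 alone, whose library numbers follow on from each other while replicate 1 of every group stands apart, gave 1 lower call. Among all genes tested there, 1568 of 11132 were called lower.

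The lowest value was that of Rpl3l, a copy of Rpl3 known from heart and skeletal muscle. It was listed at 2.74, 3.19 and 4.17 FPKM in PMN-MDSCs and at 0.444, 0.537 and 0.655 FPKM among WT Mo-MDSCs (log2 fold change -2.42, SE 0.23). The groups did not overlap, and the DKO Mo-MDSC values of 0.399, 1.69 and 0.825 FPKM lay below those of PMN-MDSCs. It passed the filter on low values only through PMN-MDSCs, where it is high, so its difference is a description and its test is not used. Rpl3 itself, a core protein near the catalytic centre of the large subunit, stood at 796, 767 and 779 FPKM in PMN-MDSCs and at 813, 818 and 822 in WT Mo-MDSCs (log2 fold change 0.07, SE 0.08, adjusted p = 0.531, limma). Rpl3l remained lower in WT Mo-MDSCs at equal total FPKM, and none of its transcript's 75-base stretches occurred in another gene.

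The remaining lower calls, all made on the values as deposited, were smaller. Rps21, a small-subunit protein, was at 1327, 1550 and 1673 FPKM in PMN-MDSCs and at 1115, 1106 and 1116 in WT Mo-MDSCs (log2 fold change -0.44, SE 0.11, adjusted p = 0.0191, limma). Rpl12, at the base of the stalk, was at 1742, 1616 and 1652 against 1330, 1277 and 1240 FPKM (-0.38, SE 0.09, adjusted p = 0.0156, limma). Neither gene's groups overlapped, but at equal total FPKM the log2 fold changes were 0.0022 and 0.06. Rpl37, of the large subunit, was at 449, 496 and 592 FPKM against 383, 376 and 391 (-0.41, SE 0.11, adjusted p = 0.0266, limma). Rps9, which binds ribosomal RNA early in small-subunit assembly, was at 2581, 2649 and 3152 FPKM against 2083, 2069 and 2253 (-0.38, SE 0.12, adjusted p = 0.0417, limma). Rpl17, which lines the exit tunnel of the large subunit, fell by 0.35 (SE 0.11, adjusted p = 0.036, limma) from a PMN-MDSC range of 1164 to 1412 FPKM. Rpl13a, also known as a subunit of an interferon-gamma-activated inhibitor of translation, was at 1192, 1172 and 1276 against 972, 1004 and 965 FPKM (-0.31, SE 0.09, adjusted p = 0.0291, limma). At equal total FPKM each of Rpl37, Rps9, Rpl17 and Rpl13a turned to a value between 0.03 and 0.14. Rpl22l1, a copy of Rpl22, was at 125, 117 and 116 against 104, 89.8 and 106 FPKM (-0.26, SE 0.09, adjusted p = 0.0496, limma), and Rpl22 at 93.2, 95.3 and 105 against 97.1, 96.0 and 96.1 FPKM (-0.02, SE 0.07, adjusted p = 0.856). The values of Rpl22l1 and Rpl22 at equal totals were 0.18 and 0.42.

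The highest values in Mo-MDSCs were those of Rpl36al, Rplp0, Rpl7a, Rpl10, Rps27l and Rpsa. Rpl36al, a copy of Rpl36a, was at 300, 361 and 342 FPKM in PMN-MDSCs and at 368, 402 and 437 in WT Mo-MDSCs (log2 fold change 0.27, SE 0.10, adjusted p = 0.0839, limma; 0.0087 with the replicate block). Its parent Rpl36a leaned the other way on the deposited scale, from 541, 689 and 700 to 486, 554 and 589 FPKM (-0.24, SE 0.13, adjusted p = 0.194; 0.0122 with the block), though not at equal total FPKM, where its value was 0.20. Rpl36a is the gene whose sequence is shared most, so these values are uncertain. Rplp0, the scaffold of the stalk, was at 991, 1037 and 1081 against 1140, 1212 and 1232 FPKM (0.21, SE 0.09, adjusted p = 0.113, limma; 0.0197 with the block). The 2 acidic proteins that sit on it did not share its sign as deposited: Rplp1 had a log2 fold change of -0.32 (SE 0.12, adjusted p = 0.0758, limma; 0.0083 with the block) and Rplp2 of -0.07 (SE 0.12, adjusted p = 0.692). At equal totals all 3 stalk genes were higher. Rpl7a had a value of 0.16 (SE 0.09, adjusted p = 0.216, limma; 0.0423 with the block), and Rpl10, a late-joining large-subunit protein, of 0.15 (SE 0.11). Rps27l, a p53-induced copy of Rps27, and Rpsa, also known as a laminin receptor, had values of 0.09 and 0.08.

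**Figure D3:**
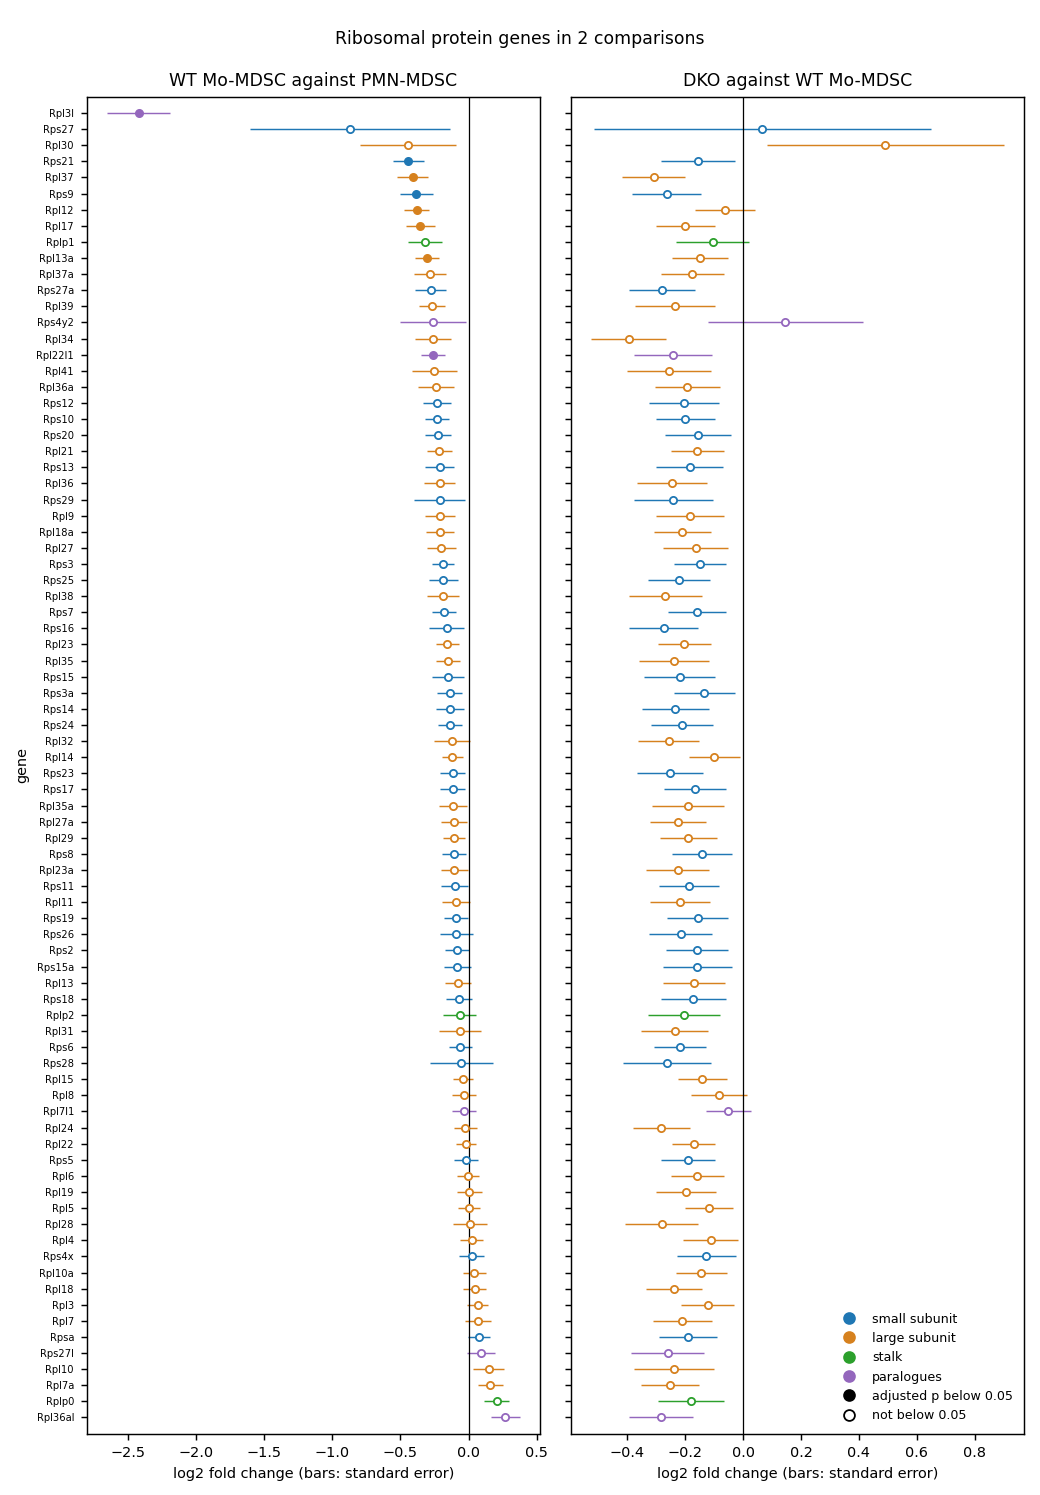
Log2 fold change (x axis; the panels differ in scale) with its standard error for each ribosomal protein gene, ordered by the left panel and coloured by role, for the values as deposited. Filled points passed an adjusted p of 0.05 in limma; 8 genes did so on the left and 0 on the right, where 78 of 81 genes lie below 0; at equal total FPKM 79 of the 82 on the left lie above 0 and 61 of the 81 on the right below it.

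Beside Rpl13a and Rpl10, given above, 6 genes known for roles beyond the ribosome had values between -0.19 and 0.0054 in this comparison as deposited, and all 6 were above 0 at equal totals. Rpl5 and Rpl11, which bind the p53 ligase Mdm2, had log2 fold changes of 0.0054 and -0.09. Rps6, the phosphorylation target of S6 kinase, was at -0.06, Rps19, mutated in Diamond-Blackfan anaemia, at -0.09, and Rps14, whose loss marks a myelodysplastic syndrome, at -0.14. Rps3, at the mRNA entry site and linked to DNA repair, was at -0.19 and was called only with the replicate block (adjusted p = 0.0186, limma). Of the paralogues not yet named, Rpl7l1 (29.2 to 34.6 FPKM over the 6 samples) and Rps4y2 (5.52 to 11.1 FPKM) had values of -0.03 and -0.26 with adjusted p = 0.787 and 0.429 in limma. Their parents Rpl7 and Rps4x had values of 0.07 and 0.02. Rps27 and Rpl30 had low log2 fold changes of -0.87 and -0.45 with standard errors of 0.73 and 0.35, and for Rpl30 the value was 0.00073 without Mo-MDSC replicate 1. Rps27 was called with the block (adjusted p = 0.000204, limma), and its values differed between replicate numbers more than between groups.

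**Figure D4:**
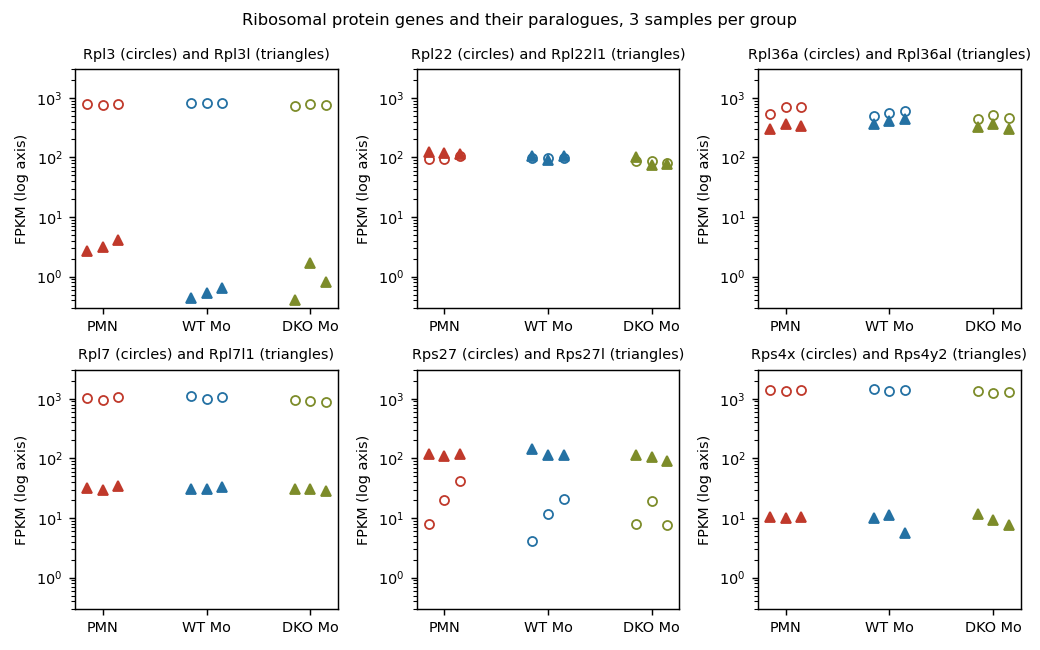
FPKM on a log axis for 6 ribosomal protein genes (circles) and the paralogue of each (triangles), with 3 samples per group. Rpl3l lies at 2.74 to 4.17 FPKM in PMN-MDSCs and at 0.399 to 1.69 in the Mo-MDSC samples, Rps27 lies below its paralogue Rps27l in every sample, and Rpl22 and Rpl22l1 lie at similar levels.

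The second comparison asked how Mo-MDSCs labelled p16/p21-DKO differed from WT Mo-MDSCs. It shares the 3 WT Mo-MDSC samples with the first, so the values of the 2 comparisons are not independent. Of 81 genes tested, Rpl3l being below the filter, 78 had lower values in DKO Mo-MDSCs as deposited (background 53.5%) and 3 had higher values (background 46.5%). The median log2 fold change was -0.19, with quartiles of -0.24 and -0.16, against a median of -0.02 over all 11451 genes tested. As deposited, the medians were -0.19 for 31 small-subunit genes, -0.20 for 42 large-subunit genes and -0.18 for the 3 stalk genes. The 5 paralogues tested spread more widely, with a median of -0.24, quartiles of -0.26 and -0.05, and 1 higher. At equal total FPKM, 61 of the 81 genes were lower and 20 higher, with a median of -0.04 against 0.14 over all genes. After quantile normalization the median was 0.0030 against 0.0099. Relative to the median gene the shift was thus -0.18 as deposited, -0.17 at equal totals and -0.0070 after quantile normalization. As in the first comparison, the values as deposited and at equal totals had to be close.

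No gene of the group passed the test in this comparison. With limma, 0 of 81 were lower (background 0.0873%) and 0 higher (background 0.166%) at an adjusted p below 0.05, and the smallest adjusted p was 0.243. Blocked on the replicate number, 0 were lower (background 0.0524%) and 0 higher (background 0.122%), and the totals made equal also left 0 either way (backgrounds 0.0961% and 0.227%). At an unadjusted p below 0.05, 9 were lower (background 9.74%) and 0 higher (background 5.27%). All 3 DKO values lay below all 3 WT values for 53 of the 81 genes, 21 of the small subunit, 30 of the large subunit and 2 paralogues (background 12.9%), and above them for 0 (background 7.96%). For a single such gene the exact two-sided permutation test gives p = 0.1, the smallest it can give with 3 against 3 samples. The genes share the scaling of their sample, so the 53 are not separate observations, and DKO Mo-MDSC replicate 3 was the lowest of the 9 samples for 57 genes, as given above. Leaving out a sample moved the median between -0.23, without DKO Mo-MDSC replicate 2, and -0.15, without DKO Mo-MDSC replicate 3.

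Rpl34, of the large subunit, had the lowest log2 fold change. It was at 1339, 1092 and 1064 FPKM in WT and at 958, 809 and 885 FPKM in DKO Mo-MDSCs, a value of -0.39 (SE 0.13, adjusted p = 0.243, limma). The groups did not overlap, and the value was -0.24 at equal total FPKM. Rpl37 followed, at 383, 376 and 391 against 323, 341 and 269 FPKM (-0.31, SE 0.11, adjusted p = 0.261, limma), also without overlap. Rpl36al was at 368, 402 and 437 against 329, 366 and 299 FPKM (-0.28, SE 0.11, adjusted p = 0.304, limma). Rpl24, which forms a bridge to the small subunit, was at 531, 501 and 504 against 444, 442 and 380 FPKM (-0.28, SE 0.10, adjusted p = 0.263, limma). Rpl28 and Rps27a, the latter made as a fusion to ubiquitin, also had values of -0.28, and neither gene's groups overlapped. At equal total FPKM the values of Rpl37, Rpl36al, Rpl24, Rpl28 and Rps27a were between -0.15 and -0.12, so their sign held there.

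At the other end, the 3 genes with higher values in DKO were those whose replicates spread most. Rpl30 had a log2 fold change of 0.49 (SE 0.41), Rps4y2 of 0.15 (SE 0.27) and Rps27 of 0.07 (SE 0.58). For Rpl30 the value was 0.04 without WT Mo-MDSC replicate 1 and 0.19 without DKO Mo-MDSC replicate 3, and up to 0.79 over the samples left out. Next to them Rpl7l1 (-0.05), Rpl12 (-0.06) and Rpl8 (-0.08) were least changed. Rpl12 was at 1330, 1277 and 1240 in WT and at 1300, 1237 and 1151 FPKM in DKO Mo-MDSCs, overlapping groups, though it was among the lower calls between WT Mo-MDSCs and PMN-MDSCs. With totals made equal Rpl7l1, Rpl12 and Rpl8 turned to 0.10, 0.09 and 0.07.

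The stalk genes Rplp0, Rplp1 and Rplp2 had values of -0.18, -0.10 and -0.20, with overlapping groups in each. The genes of highest mean had values of -0.24 (Rps29), -0.26 (Rps9), -0.26 (Rpl41) and -0.27 (Rpl38). Rps6 was at 693, 653 and 675 in WT and at 586, 597 and 556 FPKM in DKO Mo-MDSCs, without overlap (-0.22, SE 0.09, adjusted p = 0.315, limma). Rpl11 (-0.22), Rpl10 (-0.24), Rps14 (-0.23), Rps19 (-0.16), Rps3 (-0.15), Rpl13a (-0.15) and Rpl5 (-0.12) were also lower as deposited. Of these, the signs of Rps3, Rpl13a and Rpl5 turned at equal total FPKM. Among parents and paralogues, Rpl3 was at -0.12, Rpl7 at -0.21, Rpl22 at -0.17 beside Rpl22l1 at -0.24, Rpl36a at -0.19, Rps4x at -0.13 and Rps27l at -0.26.

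**Figure D5:**
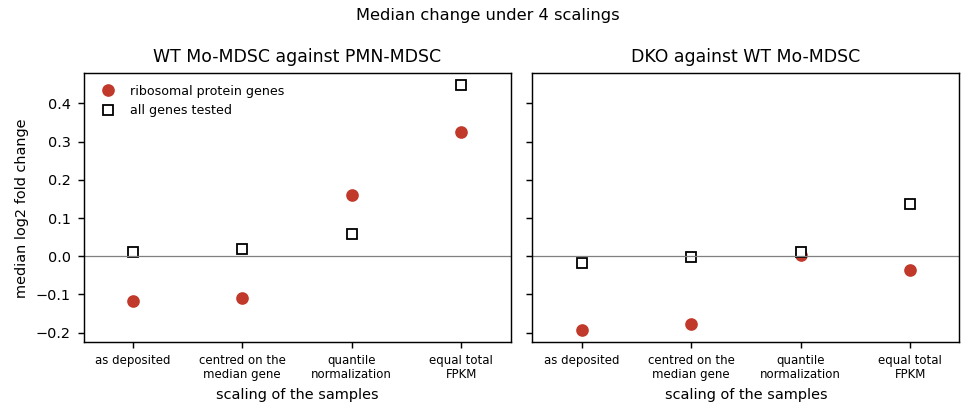
Median log2 fold change of the ribosomal protein genes (circles) and of all genes tested (squares) with the samples scaled in 4 ways. Between WT Mo-MDSCs and PMN-MDSCs the circle lies at -0.12 as deposited and at 0.33 at equal totals, below the square in both; after quantile normalization it lies above the square, at 0.16; between DKO and WT it lies at -0.19, -0.04 at equal totals and 0.0030 after quantile normalization.

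Within the group, the log2 fold change as deposited, taken with its sign, rose with the length of the coding sequence. Coding length was 138 to 1260 bases in the GENCODE M21 annotation, with a median of 468. For the first comparison the median log2 fold change was -0.16 for the 40 shorter and -0.08 for the 41 longer genes, and Spearman's rho between length and log2 fold change was 0.445 across 81 genes. In DKO against WT the medians were -0.22 and -0.17 for 40 genes each, with a rho of 0.422. Across all genes with a coding length the rho was 0.13 and 0.275. These are correlations across genes of the same libraries, which are not independent replicates. Genes with a pyrimidine run in the window shown above did not stand apart. Their median log2 fold change was -0.09 (35 genes) against -0.15 (26 genes without a run) in the first comparison and -0.20 (35 genes) against -0.19 (25 genes) in the second.

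Replicate 1 of each group, whose library number stands apart, lay below replicates 2 and 3 in all 3 groups for 14 of the 82 genes (17.1%, against 12% of 11520 genes with a mean of at least 1 FPKM) and above them for 5 (6.1%, against 13.2%). The 14 included Rpl30, Rpl3l, Rpl41, Rpl31, Rpl36a and Rpl28. The groups were balanced over this division, since each held 1 sample of the earlier and 2 of the later numbers.

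Genes that work with the ribosome are given from lists of the translation machinery. Among ribosomal proteins outside the naming rule, Fau, a small-subunit protein fused to a ubiquitin-like domain, was called lower in WT Mo-MDSCs as deposited, from 1966, 2070 and 2504 to 1413, 1421 and 1541 FPKM (log2 fold change -0.57, SE 0.12, adjusted p = 0.00975, limma). Rack1, listed as Gnb2l1, a scaffold protein on the small subunit, had a value of 0.16. In DKO against WT Fau and Rack1 had values of -0.30 and -0.13, each without overlap and neither called (adjusted p = 0.288 and 0.562, limma).

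The 29 initiation factors differed from the ribosomal protein genes in sign as deposited. In WT Mo-MDSCs against PMN-MDSCs 23 had higher values (background 50.8%), 4 were called higher (background 18.5%) and 2 lower (background 20.6%), with a median of 0.13. Eif1, a factor of start codon selection, was at 456, 515 and 526 FPKM in PMN-MDSCs and at 306, 337 and 336 in WT Mo-MDSCs (-0.61, SE 0.09, adjusted p = 0.0021, limma). Eif5, its partner, fell by 0.40 (SE 0.10, adjusted p = 0.0201, limma), while Eif3h rose by 0.30 (SE 0.08, adjusted p = 0.0198, limma). None of the 9 elongation factors and subunits was called (1 lower and 0 higher at an unadjusted p below 0.05, limma), with a median of 0.03, and Eef1a1, which delivers tRNA, was at 3743 to 3987 FPKM in PMN-MDSCs and 4134 to 4367 in WT Mo-MDSCs. Between DKO and WT Mo-MDSCs the medians of the initiation list and this list were -0.06 and -0.15, against -0.02 over all genes. The second of these is not a median of elongation factors alone. Limma called no gene of either list. At an unadjusted p below 0.05 in limma, 5 and 2 were lower (background 9.74%) and 0 higher (background 5.27%). Eif3k, Eif3f, Btf3 and Naca had values of -0.32, -0.26, -0.29 and -0.22, without overlap. With totals made equal the medians of these lists were 0.57 and 0.47 in the first comparison, against 0.45 over all genes. In the second they were 0.09 and 0.0073, against 0.14.

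Of 50 ribosome biogenesis genes, 8 were called higher and 2 lower in WT Mo-MDSCs, beside 18.5% and 20.6% of all genes, with a median of 0.09. Ltv1, an assembly factor of the small subunit, rose from 20.5, 18.8 and 18.9 to 29.6, 25.9 and 27.3 FPKM (0.50, SE 0.08, adjusted p = 0.00305, limma), and Taf1d and Polr1e, of the RNA polymerase I machinery, both rose by 0.51 (adjusted p = 0.00588 and 0.0486, limma). Polr1a, the catalytic subunit of that polymerase, fell by 0.51 (SE 0.10, adjusted p = 0.00783, limma). Between DKO and WT the list leaned the other way from the ribosomal proteins themselves, with 33 of 50 higher (background 46.5%). The median was 0.07 as deposited, against -0.02 over all genes, and 0.23 at equal totals, against 0.14. No gene was called. At an unadjusted p below 0.05 in limma, 2 were lower (background 9.74%) and 6 higher (background 5.27%). Mdn1, Dkc1 and Polr1a had the highest values, 0.46, 0.35 and 0.33, with adjusted p = 0.327, 0.243 and 0.309 in limma. For Mdn1, at 7.45, 6.49 and 11.4 FPKM in DKO and 6.10, 5.78 and 5.88 in WT Mo-MDSCs, the value was 0.23 without DKO Mo-MDSC replicate 3, a setting chosen after seeing the data.

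Of 13 TOR pathway genes, 5 were called higher (background 18.5%) and 3 lower (background 20.6%) in WT Mo-MDSCs. Larp1, which binds TOP mRNAs, was at 23.6, 22.9 and 24.2 FPKM in PMN-MDSCs and at 33.2, 32.6 and 34.5 in WT Mo-MDSCs (0.50, SE 0.07, adjusted p = 0.00129, limma). Deptor, an inhibitor of mTOR, rose by 2.11 (SE 0.15, adjusted p = 8.17e-05, limma), and Eif4ebp1, the translation repressor that mTOR inactivates, fell by 1.28 (SE 0.16, adjusted p = 0.00107, limma) from 97.2, 128 and 152 to 45.9, 54.3 and 52.7 FPKM. Tsc1, a brake on mTOR, rose by 0.48 (SE 0.09, adjusted p = 0.00569, limma). No gene of the list was called between DKO and WT. At an unadjusted p below 0.05 in limma, 2 were lower (background 9.74%) and 1 higher (background 5.27%). Tsc1 had the highest value (0.31, SE 0.09, adjusted p = 0.209, limma) and Mlst8, a constant mTOR partner, the lowest (-0.46, SE 0.15, adjusted p = 0.247, limma). Among 6 genes that link free ribosomal proteins to p53, Mdm2 was lower and Mdm4 and Cdkn1a were higher in WT Mo-MDSCs, at -0.36, 0.47 and 1.64 (adjusted p = 0.0195, 0.00487 and 0.000667, limma). None of the 6 was called in DKO against WT. At an unadjusted p below 0.05 in limma, 0 were lower (background 9.74%) and 0 higher (background 5.27%). At equal totals Mdm2 turned to 0.08 and Eif5 to 0.04, while Fau, Eif1, Polr1a and Eif4ebp1 stayed lower.

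The 76 mitochondrial ribosomal protein genes, a list added after the data were seen, build the separate ribosome of that organelle. In WT Mo-MDSCs against PMN-MDSCs 49 had higher values (background 50.8%), 9 were called higher (background 18.5%) and 4 lower (background 20.6%), with a median of 0.08. Between DKO and WT 62 had lower values (background 53.5%), with a median of -0.13 as deposited and 0.03 at equal totals (-0.02 and 0.14 over all genes). No gene of the list was called in that comparison (15 lower and 0 higher at an unadjusted p below 0.05, limma, backgrounds 9.74% and 5.27%), and 14 lay below WT without overlap (background 12.9%).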

How the data were processed

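FPKM values of 9 samples were analysed, in 3 groups of 3 taken from the sample titles. Per the labels and the study's methods, the authors prepared stranded mRNA libraries, read 75 bases from a single end, mapped them to mm10 with TopHat2 2.0.13, Bowtie2 2.2.3 and SAMtools 0.1.19, and deposited FPKM from Cuffnorm 2.2.1 for 23284 symbols. The annotation and the scaling of the libraries are not given in the sources used here. No read counts were analysed, so the depth in reads is unknown. Relative to WT Mo-MDSC replicate 1 it was 0.809 to 1.31, from 363 to 437 of 1955 to 2178 genes under 0.5 FPKM per sample whose ratio fell on that of single reads. The precision of a fold change is its standard error.

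Values were transformed to log2(FPKM + 0.1), which understates the change of low genes. A gene entered a comparison when 3 or more of its 6 samples reached 1 FPKM, and all such genes were fitted together with limma 3.58.1 in R 4.3.3 (eBayes with a trend), without covariates, as deposited, and p-values were adjusted by Benjamini-Hochberg over all genes tested. The fit was tested on simulated data. Samples with the same replicate number were checked for pairing. The correlations of their deviations from the group means were 0.294, 0.483 and 0.2 for WT Mo-MDSCs and PMN-MDSCs, so the blocked counts are given there. For DKO and WT they ranged from -0.07 to 0.348.

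Named genes were the 6 largest and 6 smallest log2 fold changes, the 5 of highest mean, the stalk genes, the paralogues with their parents, and 8 genes known for other roles; from each related list, up to 3 at either end. The members and lists were chosen with earlier results of these data known. Alternatives were the pseudocount, the filter, quantile, equal-total and median scaling, the replicate block, 1 fit of all samples, and each sample left out. A gene of the related lists is not reported here.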

Additional observations from a re-analysis of the deposited data

How the results depend on the processing

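Pseudocounts of 1 and 0.01, median centring, stricter membership and each sample left out kept the direction of both group differences, which ranged from -0.21 to -0.11 (WT Mo-MDSCs minus PMN-MDSCs) and from -0.22 to -0.13 (DKO minus WT) over the samples left out. The scaling changed them. WT minus PMN turned to 0.13 with quantile normalization, 0.28 at equal total FPKM, 0.30 for the log2 share of total FPKM, and 0.11 for that share without the 10 highest other genes. DKO minus WT turned to 0.0053 with quantile normalization and moved to -0.016 at equal totals, -0.043 for the share and -0.075 without the 10 highest. The 8 genes lower in WT Mo-MDSCs became 1 with quantile normalization, 1 at equal totals and 2 without the filter on low values. They became 1 in replicates 2 and 3 alone, 16 at an unadjusted p and 1 to 6 with a sample left out. Among all genes tested the lower calls were 2061 of 11491 with quantile normalization and 954 of 11491 at equal totals. They were 2357 of 17357 without the filter, 1568 of 11132 in replicates 2 and 3 alone, and 1739 to 2113 with a sample left out. The lower call of the group with quantile normalization and at equal totals was Rpl3l, which was also among the 2 without the filter. Rpl3l passes the filter on low values only through PMN-MDSCs, where it is high, so its calls are not used. The 0 higher became 25, 43 and 1 with quantile normalization, equal totals and an unadjusted p. Among all 11491 genes tested the higher calls were 2511, 5826 and 2681 in these settings. With the replicate block 27 were lower and 3 higher. In DKO against WT the block left 0 lower and 0 higher calls, and an unadjusted p gave 9 lower. Deviations of same-numbered samples from their group means correlated at -0.07 to 0.348 there. The cause of the shifts with scaling was not tested.

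Single genes of the first comparison turned sign at equal totals to 0.35 (Rpl11), 0.062 (Rpl12), 0.14 (Rpl13a), 0.090 (Rpl17), 0.42 (Rpl22), 0.18 (Rpl22l1), 0.20 (Rpl36a), 0.034 (Rpl37), 0.26 (Rpl38), 0.19 (Rpl41), 0.41 (Rpl7l1), 0.12 (Rplp1), 0.38 (Rplp2), 0.31 (Rps14), 0.35 (Rps19), 0.0022 (Rps21), 0.23 (Rps29), 0.25 (Rps3), 0.18 (Rps4y2), 0.38 (Rps6) and 0.060 (Rps9). Quantile normalization turned them to 0.19 (Rpl11), 0.30 (Rpl22), 0.071 (Rpl22l1), 0.20 (Rpl36a), 0.060 (Rpl37), 0.086 (Rpl7l1), 0.16 (Rplp2), 0.12 (Rps14), 0.23 (Rps19), 0.29 (Rps3) and 0.35 (Rps6). Over the samples left out, genes near 0 or with a wide spread ranged from -0.054 to 0.032 (Rpl22), -0.75 to 0.00073 (Rpl30), -0.039 to 0.042 (Rpl5; -0.0052 in replicates 2 and 3 alone), -0.098 to 0.024 (Rpl7l1), -0.16 to 0.010 (Rplp2), -0.012 to 0.15 (Rps27l), -0.0073 to 0.055 (Rps4x) and -0.45 to 0.043 (Rps4y2).

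Between DKO and WT, equal totals turned Rpl12 to 0.095, Rpl13a to 0.0073, Rpl3 to 0.035, Rpl5 to 0.039, Rpl7l1 to 0.10, Rpl8 to 0.074, Rplp1 to 0.052, Rps3 to 0.0075 and Rps4x to 0.031. Quantile normalization turned Rpl12 to 0.14, Rpl13a to 0.016, Rpl3 to 0.054, Rpl36a to 0.036, Rpl38 to 0.0025, Rpl5 to 0.072, Rpl7l1 to 0.0047, Rpl8 to 0.10, Rplp0 to 0.0091, Rplp1 to 0.077, Rplp2 to 0.0037, Rps3 to 0.022, Rps4x to 0.072 and Rps6 to 0.031. Rps27 and Rps4y2 ranged from -0.56 to 0.59 and from -0.16 to 0.34 over the samples left out, and Rps27 was at -0.36 in replicates 2 and 3 alone.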
